A study of Mus with 4 samples.

Results

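Intronic circular RNAs (circRNAs) are taken here as every back-spliced junction that the deposited tables class as intron in each library listing it. Of 44073 circRNAs listed in 4 libraries of mouse ocular tissue, 3497 met that rule, against 38100 exonic and 2429 intergenic circRNAs and 47 whose class differed between tables. All mice were C57BL/6J and had breathed 75% oxygen from postnatal day 7 (P7) until day 12. The groups were wild type at P12, wild type at P13, VLDLR deletion at P12 and VLDLR deletion at P13, each with 1 library. P12 tissue was collected at the return to room air and P13 tissue after 1 further day, so age and return to air cannot be told apart. How many animals went into each library, how VLDLR was deleted and which parts of the eye were taken is unstated in the labels. Ribosomal and linear RNA were removed before fragmentation and paired-end sequencing.

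A circRNA forms when a splice donor is joined to an acceptor that lies upstream of it in the gene, which closes the RNA into a ring with no free ends. Most known circRNAs use the ends of annotated exons. A circle can be classed as intronic when an end lies in annotated intron, whether that end belongs to an exon missing from the annotation or to an intron lariat that escaped debranching. Closed rings resist exonucleases that degrade linear RNA, and circRNAs are abundant in neural tissue, retina included. Below, the upstream end of a circle on its own strand is called the acceptor and the downstream end the donor. A junction read crosses the joined ends. The junction reads ratio is doubled junction reads over the sum of doubled junction and non-junction reads at the same ends. Whether non-junction reads came from linear RNA or from other circles was not resolved.

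The libraries held 662811 and 759063 junction reads in wild type at P12 and P13, and 299723 and 341873 in the deletion at P12 and P13, and a circRNA needed at least 2 reads to be listed. A value of 0 below means unlisted. Each library came from 1 sequencing run, and wild type and deletion shared 0 runs at the same day. At each day the genotype therefore cannot be told apart from the run. Whether the libraries of 1 genotype shared a run was not compared. No circRNA of Vldlr was listed in any library, so the deleted gene gave no check of the labels. Photoreceptor genes were represented: 32 of 53 listed genes hosted circRNAs of any class, and their reads summed to 10596 and 11653 CPM (junction reads per 1000000 of the library) in wild type at P12 and P13 and to 12969 and 13116 in the deletion. Their leading host Rpgrip1 had 3051 and 3388 against 3453 and 2981 CPM, which overlapped. Sag had 286 and 367 against 472 and 491 reads and Pde6a 457 and 830 against 454 and 569. Rp1 had 26 and 23 against 2 and 2 reads, in libraries of unequal depth. Of 26 lens genes 15 hosted circRNAs. Their sum was 851 and 1057 CPM in wild type at P12 and P13 against 2496 and 1869 in the deletion. The higher sum in the deletion came from the lens filament gene Bfsp1, with 483 and 453 against 2195 and 1650 CPM. Cryga had 45 and 158 reads in wild type against 4 and 8 in the deletion, and Bfsp2 5 and 10 against 0 and 0. Prox1 had 143 and 223 against 61 and 36 reads, in libraries of unequal depth. None of the lens circRNAs was intronic. Circles of the leukocyte list came from 3 of 15 genes, led by Mrc1, with sums of 39.2 and 46.1 against 90.1 and 96.5 CPM, and the defining markers Ptprc and Csf1r were at 0 in every library. Of 11 cell type lists, 9 had higher sums in both deletion libraries than in both wild-type ones, and 0 had lower sums in both. In bulk tissue, fewer cells of a type and less RNA per cell cannot be told apart.

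Intronic circRNAs made up a similar share of every library. In wild type, 1972 circRNAs at P12 and 2171 at P13 were intronic, or 6.90% (95% exact Clopper-Pearson interval 6.61 to 7.20) and 6.96% (6.68 to 7.24) of the circRNAs listed. The deletion libraries listed 1167 and 1326, or 6.48% (6.12 to 6.84) and 6.59% (6.25 to 6.94). The shares of circRNAs overlapped between the genotypes within their intervals. By junction reads the class held 4.02%, 3.97%, 4.24% and 4.17% in the same order, slightly more in both deletion libraries, with intervals that cover counting error only.

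The intronic class was long, and many of its circles reached over exonic ones. The median distance from acceptor to donor was 16146 bases over the 3497 circRNAs, with a range of 220 to 199624 bases. Per library the median was 15758, 16807, 14338 and 14967 bases for intronic circRNAs and 10390, 10602, 9880 and 10124 for exonic ones. The intronic median was higher in 4 of 4 libraries, by 5219 ± 756 bases (SD, n = 4; exact two-sided sign-flip permutation p = 0.125, the smallest that 4 libraries allow). With at least 10 reads per circle the difference was 2755 ± 354 bases. Circles of at least 100 kb made up 5.86% of the intronic and 2.43% of the exonic class. The name therefore does not mean a circle confined to 1 intron: 1084 intronic circRNAs (31.0%) contained the whole span of an exonic circRNA of the same host without lying inside another. A further 1558 (44.6%) lay inside an exonic circle, 280 overlapped one in part, 358 lay apart from all of them and 217 had no exonic circRNA of the same host. Intergenic circRNAs were longer still, with the intronic median lower in 4 of 4 libraries.

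**Figure D1:**
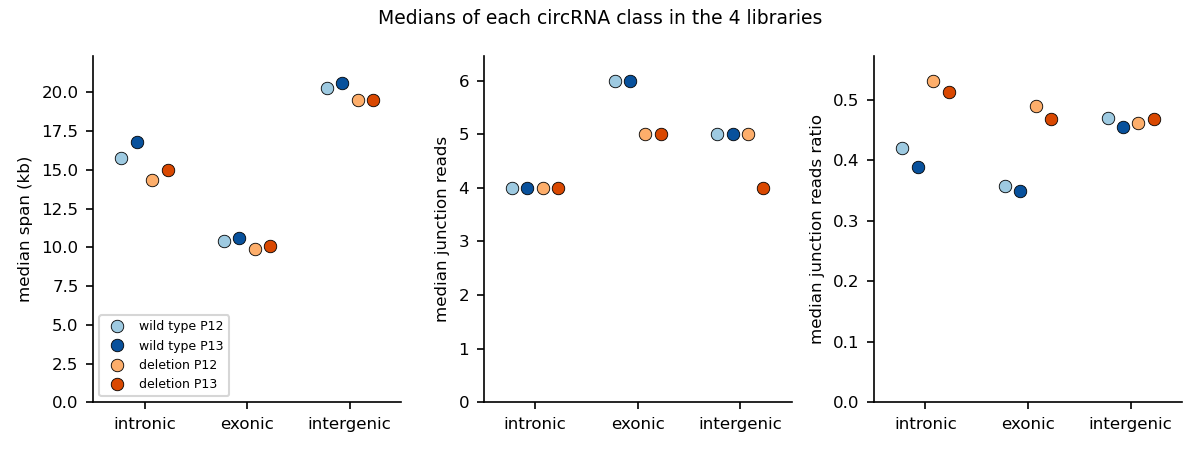
Each point is 1 library: median span in kilobases (left), median junction reads per circRNA (middle) and median junction reads ratio of circRNAs with at least 10 reads (right), for the intronic, exonic and intergenic classes. Intronic points lie above exonic ones in span and ratio and below them in reads within every library.

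Among those with at least 50 reads, the longest were circles of Dmd (184463 bases), the dystrophin gene, of Nrxn3 (163327 bases), a presynaptic neurexin, and of Fars2 (134471 bases), the mitochondrial phenylalanine tRNA synthetase. The Dmd circle had 14, 22, 7 and 12 reads and the Nrxn3 circle 30, 28, 5 and 0 in the order wild type at P12 and P13, then deletion at P12 and P13, which is kept throughout. All 3 shared their donor with an exonic circRNA. The shortest were circles of Hs3st4 (220 bases), a heparan sulfate sulfotransferase gene, of Glp2r (313 bases), the receptor of glucagon-like peptide 2, and of Cerkl (383 bases), a ceramide kinase-like gene linked to retinal degeneration. The Hs3st4 circle had 15 reads in each of the 4 libraries. As the deletion libraries were the shallower, its CPM was higher in them.

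Most intronic circRNAs joined a new end to an end that exonic circRNAs also used. Of the 3497, 2397 (68.5%) shared an end with an exonic circRNA: 1437 the donor, 957 the acceptor and 3 both, and 1100 neither. Among intergenic circRNAs 24.7% shared an end with an exonic one. Circles with 1 shared end were longer (median 20618 bases) than those with none (7564 bases). Their pooled junction reads ratio, taken over the libraries that list a circle for circles with at least 10 reads, was lower, with medians of 0.237 and 0.388. The circles with no shared end held 39.7% of all intronic junction reads, and the Tulp4 circle described below is one of them.

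**Figure D2:**
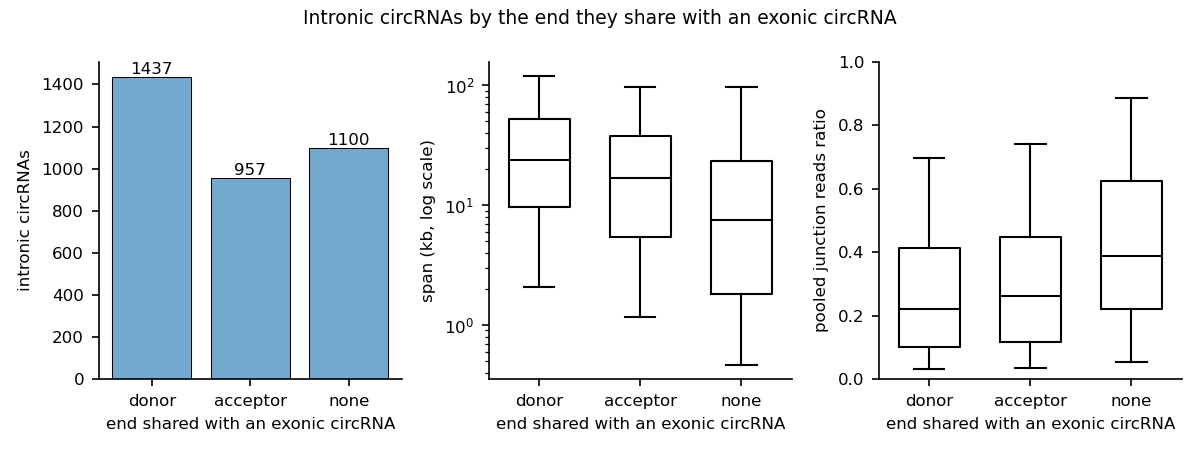
Left, number of intronic circRNAs that share the donor, the acceptor or neither end with an exonic circRNA (3 that share both are not drawn). Middle and right, their spans (log scale) and pooled junction reads ratios (at least 10 reads), with boxes from the first to the last quartile, a line at the median and whiskers at the percentiles 5 and 95; circles with no shared end are the shortest and have the highest ratios.

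The ends not used by any exonic circRNA recurred. There were 3636 such ends, 1933 acceptors and 1703 donors, and 608 of them (16.7%) served at least 2 intronic circRNAs. A single acceptor of Tulp4, a tubby-like protein gene, at position 6137211 of chromosome 17 served 9 circles with 10098 reads in all. Another, of Rims2 at position 39452040 of chromosome 15, also served 9, with 733 reads. Erc2 had an acceptor at position 27776159 of chromosome 14 that served 8 circles with 1542 reads. In 114 cases such an acceptor was followed by such a donor of the same strand within 300 bases, with a median distance of 123.5 bases (quartiles 86.5 and 177). Coordinates are those of the deposited tables, whose genome build no source used here names.

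Neighbouring acceptors a few bases apart formed a further pattern. In 41 pairs of intronic circRNAs the partner end was the same and the other end differed by at most 10 bases. The differing end was the acceptor in 37 pairs and the donor in 4. The distance was 3 bases in 16 pairs and 4 bases in 12. In Fmn1, a formin gene that builds actin filaments, acceptors at 113426522 and 113426525 of chromosome 2 joined the same donor with 268, 319, 210 and 245 reads for the first and 67, 103, 87 and 79 for the second. In Rims2 the acceptors at 39555065 and 39555068 had 155, 156, 72 and 63 against 53, 53, 21 and 23 reads. The first position had more reads in every library in both genes. In Zfp292, a zinc-finger gene, the 2 acceptors were near equal, with 41, 37, 17 and 21 against 42, 37, 14 and 25 reads. This pattern was noticed after the values were seen, and whether the caller's alignment takes part in it was not tested.

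Junction reads were concentrated in few circles. The median intronic circRNA had 4 reads in every library, below the exonic median of 5 or 6 (difference -1.5 ± 0.58, n = 4; exact two-sided sign-flip permutation p = 0.125). The 15 intronic circRNAs with the most reads held 29.99% of all reads of the class, whereas the leading 15 of the exonic class held 7.67%. The circles described next are instead the 15 with the highest mean CPM over the libraries. A single circle of Tulp4, on chromosome 17 from 6137211 to 6139156 (1946 bases), held 11.5%. It had 3365, 3225, 1438 and 1638 reads, or 5077, 4249, 4798 and 4791 CPM, with wild type P13 the lowest. Its ratio lay between 0.952 and 0.965 in the 4 libraries, and 97.6% of all circRNA reads of Tulp4 came from intronic circles.

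Genes of the presynaptic active zone, the site of transmitter release, recurred among the most abundant. Rims1, a scaffold of vesicle priming, gave a circle of 47656 bases on chromosome 1 with 1050, 1051, 897 and 933 CPM, the wild-type libraries the higher. Erc2, which binds RIM proteins at the active zone, gave one of 1084 bases with 638, 726, 641 and 559 CPM, whose ranges overlapped between the genotypes. The Rims2 circle from 39610064 to 39616510 had 259, 343, 581 and 743 CPM, with both deletion libraries above both wild-type ones.

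Nuclear genes supplied several of the others. Zfp532, a zinc-finger gene, gave 2 circles that end at the same donor, at 941, 862, 701 and 696 and at 600, 613, 394 and 483 CPM. Both deletion values lay below both wild-type values for each circle, and neither circle passed the genotype test. Zeb1, a transcriptional repressor, gave a circle at 560, 453, 567 and 632 CPM, which did not pass it either. The Tlk1 circle, from a kinase gene of chromatin assembly, had 395, 346, 344 and 412 CPM and that of Ogdh, a citric acid cycle enzyme, 466, 472, 470 and 395. Their values overlapped between the genotypes. Others of the 15 were circles of Glp2r, Fmn1 (a pair of them), BC046251 and Ntm, whose values are given with the genotype.

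**Figure D3:**
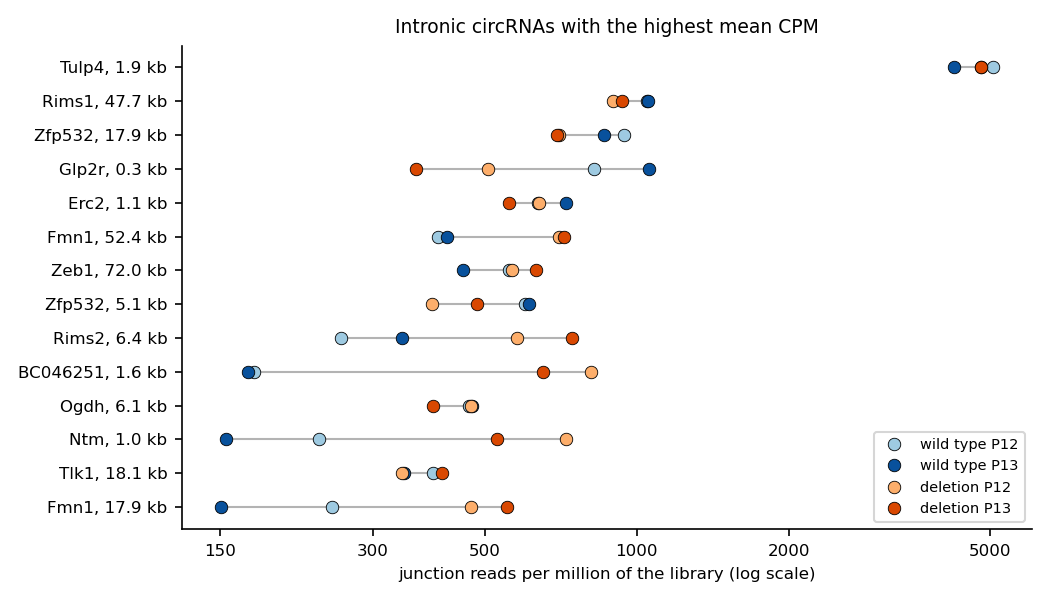
CPM (log scale) for 14 of the 15 intronic circRNAs with the highest mean CPM, labelled by host and span; each point is 1 library. The Tulp4 circle lies between 4249 and 5077 CPM, above all others drawn, and the circles of BC046251, Ntm, Rims2 and Fmn1 have both deletion points to the right of both wild-type points.

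The junction reads ratio was higher for intronic than for exonic circRNAs in 4 of 4 libraries. Among circRNAs with at least 10 reads, the intronic medians were 0.421, 0.389, 0.532 and 0.514 and the exonic medians 0.358, 0.350, 0.490 and 0.468. The mean difference was 0.0475 ± 0.0107 (SD, n = 4; exact two-sided sign-flip permutation p = 0.125). Intergenic medians were 0.471, 0.456, 0.462 and 0.468, above the intronic ones in wild type and below them in the deletion. Intronic medians were higher in both deletion libraries than in both wild-type ones, and so were exonic medians. The gap was smaller where the same circles were compared. Over 188 intronic circRNAs with at least 10 reads in both P12 libraries, the median difference within a circle (deletion minus wild type) was 0.0172, and over 213 at P13 it was 0.0191. The matching exonic values were 0.0107 and 0.00632. From P12 to P13 the median difference was -0.0011 over 333 circles of wild type and -0.00649 over 171 of the deletion.

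Ratios were pooled over the libraries that list a circle. The highest among circles with at least 100 reads were those of E2f5 (0.987), a cell-cycle transcription factor gene, Tulp4 (0.961), Glp2r (0.945) and Fbxw4 (0.935), an F-box gene. The Fbxw4 circle was unlisted in wild type P12, which its pooled ratio leaves out. The lowest were those of Rere (0.0874), a nuclear receptor corepressor gene, a Zfp532 circle from 65638750 to 65644369 (0.0935), Anks1b (0.106), a postsynaptic protein gene, and Rims2 from 39452040 to 39511374 (0.109). The Anks1b ratio was 0.0913 and 0.0951 in wild type but 0.254 and 0.234 in the deletion, so its pooled value rests on the deeper wild-type libraries. The first 3 of the highest shared no end with an exonic circRNA, but the hosts E2f5 and Glp2r had no exonic circRNA to share one with. The Zfp532 circle of low ratio began at the same acceptor as the abundant one, whose ratio was 0.916.

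Intronic circRNAs came from 1551 single hosts, of which 911 gave 1 circle and 33 gave at least 10. Exonic circRNAs were also listed for 1409 of these hosts (90.8%). Rims2 gave most, with 47 intronic circles and 779, 1074, 524 and 614 reads. Among the other leading hosts, Rere gave 25, the active zone gene Erc2 24 and Ncoa2, a nuclear receptor coactivator gene, 24. Ntm (neurotrimin, a neural adhesion protein), Baz2b (a bromodomain gene) and Magi2 (a synaptic scaffold) gave 18 each. The balance between the classes varied widely among these hosts: intronic circles held 90.1% of the circRNA reads of Erc2 and 77.8% of those of Ntm, against 7.13% for Ncoa2 and 4.36% for Rere.

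Long non-coding RNA genes hosted 94 of 3460 intronic circRNAs with a single host (2.72%) and 0.355% of the exonic ones. The share lay between 2.90% and 3.32% of intronic and between 0.330% and 0.388% of exonic circRNAs in every library. BC046251, with 711 reads, gave the most abundant of them. Other such hosts were Gm20757 with 15 intronic circles, Otx2os1 with 10, a transcript opposite the photoreceptor regulator Otx2, and Gm20754 with 10 and no exonic circRNA.

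Over all single hosts, 8.33% of the intronic and exonic circRNAs together were intronic. Of 53 synaptic genes, 30 hosted 178 intronic circRNAs with 9183 reads, and of all intronic and exonic circRNAs of these genes 22.4% were intronic. For 43 ciliary genes the share was 10.96% (63 circles), for 59 chromatin genes 7.45% (80 circles) and for 53 photoreceptor genes 8.15% (37 circles). The lists of lens, cornea, amacrine and ganglion, and Müller glia genes gave 0 intronic circRNAs, while their exonic circRNAs numbered 81, 6, 16 and 7. Of 37 lipoprotein and reelin pathway genes, in which VLDLR acts as a receptor, 5 hosted 1 intronic circle each with 24 reads in all, and none could be tested. Of 31 hypoxia genes, 7 hosted 13 intronic circles with 462 reads.

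A small group ran against the strand of the host. Where exonic circRNAs gave the host's strand, 72 of 3239 intronic circRNAs were antisense (2.22%, 95% exact interval 1.74 to 2.79). They came from 46 hosts and were shorter (median 4756 bases against 17850 for sense circles). The pooled ratio had a median of 0.599 over 18 antisense circles with at least 10 reads and 0.262 over 1037 sense circles. The most abundant were in Dmtf1, a transcription factor gene, with 58, 46, 33 and 21 reads, in the adhesion gene Kirrel3 with 26, 47, 11 and 25, and in the potassium channel interactor gene Kcnip4 with 21, 30, 15 and 30. All 3 were listed in every library.

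Fewer intronic than exonic circRNAs were listed everywhere. Of the 3497, 1869 were listed in 1 library, 670 in 2, 405 in 3 and 553 (15.8%) in all 4, against 26.4% of exonic circRNAs in all 4. The gap was small at matched reads: with 20 to 49 summed reads, 63.6% of intronic and 65.3% of exonic circRNAs were listed in all 4, and with 50 to 99 reads 93.6% and 94.7%. Both wild-type libraries alone listed 312 intronic circles and both deletion libraries alone 48, the deletion libraries being the shallower, and for the 38100 exonic circles the counts were 3893 and 389. Those with the most reads in wild type alone were circles of Vwa8 (12 and 23 reads), Kansl1l from 66762048 (15 and 19) and an antisense circle of Col23a1 (14 and 19). In the deletion alone they were circles of Hivep2 (10 and 12), Trim43b (8 and 14) and Rint1 (2 and 13). No intronic circle reached 50 reads in 1 library while unlisted in the other 3.

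The genotype was compared over all 4 libraries with the day as a covariate, which left 1 residual degree of freedom. Circles that reached 10 reads in 2 or more libraries were tested, 375 of the 3497, and these held 72.3% of the intronic reads. In the deletion 20 rose (5.33%) and 7 fell (1.87%), where over the 8785 circRNAs of all classes tested 5.03% rose and 3.59% fell. The share that rose was thus near that of all circRNAs. The median log2 change was 0.10 for intronic circRNAs and -0.08 for all those tested, also with the 10 intronic circles unlisted throughout 1 genotype set at their bound (3 reads in each library). Without adjustment, 46 and 36 intronic circles had p below 0.05 in each direction. DESeq2 called 11 of the 20 and 2 of the 7, and gave no adjusted p for 5 of the 20 and 3 of the 7. No group had a second library. The p-values therefore rest on how far the 4 libraries departed from additive genotype and day effects, moderated over all circRNAs tested. They do not measure the spread between animals or between libraries of 1 group. Scaled by the constants of the deposited SRPBM values instead of TMM, the median of all circRNAs tested lay at -1.54 on the log2 scale, and 1 intronic circle rose and 165 fell. The changes below are relative to the TMM scaling.

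The circles of highest abundance that rose came from a non-coding RNA and from adhesion, active zone and actin genes. The BC046251 circle (chromosome 7, 65613537 to 65615126) had 175, 170, 811 and 652 CPM, and no exonic circRNA of that host was listed. Its log2 change was 2.08 ± 0.17 (SE; edgeR adjusted p = 5.73e-07). The Ntm circle (chromosome 9, 29343521 to 29344548) had 235, 154, 724 and 529 CPM, a change of 1.70 ± 0.17 (adjusted p = 6.01e-06). Exonic circRNAs of Ntm had 83, 118, 29 and 47 reads in these libraries of unequal depth, and 0 of the 2 tested passed. For the Rims2 circle from 39610064, given above, the change was 1.14 ± 0.16 (adjusted p = 0.000198). It shares its donor with 14 exonic circRNAs, of which 4 were tested and 2 rose. The E2f5 circle (1004 bases) had 193, 204, 484 and 331 CPM, a change of 1.01 ± 0.20 (adjusted p = 0.00332). In each of these circles both deletion libraries lay above both wild-type libraries. By scaled counts this held for all 20 that rose, since the test selects such circles, so it is no further support. Fits that left out 1 library also dropped the day term and were filtered and scaled anew. They gave changes of 1.93 to 2.24 for BC046251, 1.28 to 1.91 for Ntm, 0.82 to 1.32 for Rims2 and 0.76 to 1.29 for E2f5.

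Fmn1 supplied 4 of the 20. Of these, 3 start at the paired acceptors described above, and the other lies upstream. The circle from 113426522 to 113444459 had 249, 150, 470 and 553 CPM, a change of 1.40 ± 0.22 (adjusted p = 0.00101). That from 113426522 to 113478963 had 404, 420, 701 and 717, a change of 0.78 ± 0.15 (adjusted p = 0.00317), and its neighbour from 113426525 had 101, 136, 290 and 231, a change of 1.14 ± 0.24 (adjusted p = 0.00464). These 3 share ends and are not independent. Without wild type P12 the last 2 lost their calls, at 0.62 and 0.81. The upstream circle from 113363836 had 4, 17, 12 and 22 reads (change 1.94 ± 0.57, adjusted p = 0.0417), and its call was lost without wild type P12 (1.09) or deletion P13 (1.44). Exonic circRNAs of Fmn1 had a median log2 change of 1.08 over 6 tested, and 0 of the 6 passed.

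Further circles that rose came from signalling and membrane genes. The Rasgrf2 circle, from a Ras exchange factor gene, had 34, 33, 96 and 35 reads, or 51.3, 43.5, 320 and 102 CPM (change 2.01 ± 0.32, adjusted p = 0.00106). The call was lost without deletion P12, which gave 1.14. A second Erc2 circle, from 28302876 to 28317314, had 31, 29, 54 and 36 reads (1.71 ± 0.32, adjusted p = 0.00189), while the abundant one did not pass (-0.19 ± 0.16). Pitpnm3, a phosphatidylinositol transfer gene, gave a circle with 37, 56, 54 and 51 reads (1.34 ± 0.28, adjusted p = 0.00462) and Myo9a, an unconventional myosin gene, one with 15, 20, 31 and 28 (1.90 ± 0.41, adjusted p = 0.00664). The Peli2 circle, from an E3 ubiquitin ligase gene, had 121, 136, 99 and 111 reads (0.86 ± 0.20, adjusted p = 0.00892). Without wild type P12 the calls of Pitpnm3 (1.02) and Peli2 (0.74) were lost, and that of Peli2 also without wild type P13 (0.71).

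Others of the 20 rested on fewer reads or on changes near the threshold. Marchf1, a membrane ubiquitin ligase gene, gave a circle of 97846 bases with 0, 3, 15 and 15 reads (4.42 ± 1.08, adjusted p = 0.0148). Circles of Zfp385b, with 14, 6, 20 and 19 reads, of the phosphodiesterase gene Pde8b, with 10, 18, 22 and 23, and of Zeb1 from 5641382, with 27, 25, 32 and 32, had adjusted p between 0.0156 and 0.0171. Those of Fars2 (105, 124, 78 and 91) and Baz2b (22, 29, 23 and 33) had adjusted p between 0.0406 and 0.0477. The Fars2 call was lost when any 1 library was left out (0.56 to 0.75). Those of Zeb1 and Baz2b were lost without wild type P12 (1.46 and 1.05) and without wild type P13 (1.16 and 1.25), and that of Baz2b also without deletion P13 (1.10). The Pde8b call was lost without wild type P12 (1.43) and that of Zfp385b without wild type P13 (1.39). The Marchf1 circle reached 10 reads in the deletion libraries only. It could be fitted only with both of those kept, so its change was not tried without either. Without 1 wild-type library the change was 3.36 to 7.29.

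**Figure D4:**
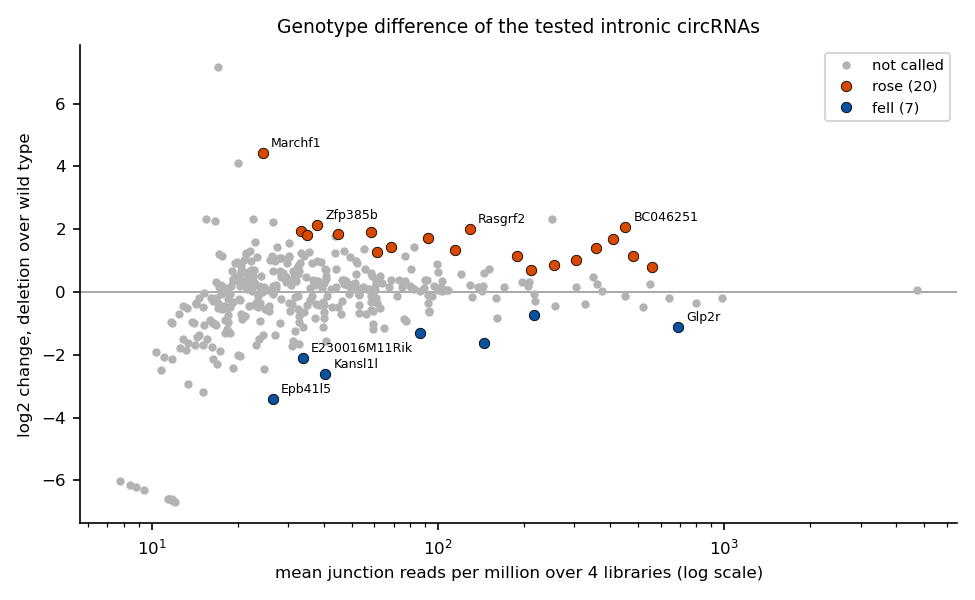
Log2 change in the deletion over wild type against mean CPM (log scale) for the 375 intronic circRNAs tested; coloured points are the 20 that rose and the 7 that fell at an adjusted p under 0.05. The called circle with the highest mean CPM is that of Glp2r, to the left of the uncalled Tulp4 and Rims1 circles, and the grey points near -6 are circles listed in wild type only.

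Among the 7 that fell, the Glp2r circle had the most reads. It had 545, 803, 152 and 125 reads, or 822, 1058, 507 and 366 CPM, a change of -1.11 ± 0.19 (adjusted p = 0.00158), and its host had no exonic circRNA. The Fam205c circle had 159, 149, 25 and 20 reads, or 240, 196, 83.4 and 58.5 CPM (-1.62 ± 0.26, adjusted p = 0.000539). Stard3, whose protein moves cholesterol from late endosomes, gave a circle with 85, 89, 20 and 12 reads (-1.30 ± 0.33, adjusted p = 0.0177), again with no exonic circRNA of the host. In these 3 every deletion library lay below every wild-type library in CPM. By scaled counts the same held for all 7 that fell, since the test selects such circles.

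The other 4 shared an end with exonic circRNAs. A Kansl1l circle of 6728 bases had 60, 37, 4 and 3 reads (-2.61 ± 0.54, adjusted p = 0.00427), while 1 of 7 exonic circRNAs of that host tested rose. A circle of Epb41l5, a cell polarity gene, had 19, 52, 0 and 3 reads (-3.42 ± 0.76, adjusted p = 0.00727), and 0 of 12 exonic ones passed. E230016M11Rik, a non-coding RNA gene, gave one with 30, 49, 4 and 4 reads (-2.11 ± 0.55, adjusted p = 0.0214). The circle of Erbin, a scaffold of epithelial junctions, had 169, 217, 45 and 60 reads (-0.73 ± 0.21, adjusted p = 0.0383). The Glp2r and Fam205c calls held in all 4 fits that left out 1 library. The circles of Kansl1l, Epb41l5 and E230016M11Rik reached the reads needed for testing in the wild-type libraries only. They could be fitted only with both of those kept, so their changes were not tried without either. Without 1 deletion library the changes were -2.92 to -2.34, -7.83 to -2.44 and -2.19 to -2.02 in that order. The Stard3 call was lost without deletion P13 (-0.87), and that of Erbin without wild type P13 (-0.77) or deletion P12 (-0.60). Of the 24 hosts of the 27 circles, 18 had an exonic circRNA tested and 8 of these had one called in either direction. Among all circRNAs tested 5.03% rose and 3.59% fell, and the share over all hosts was not counted. The exonic calls went the same way as the intronic one in Rims2, Rasgrf2, Marchf1, Baz2b and Erbin. They went the other way in Zfp385b and Kansl1l, and in Pitpnm3 1 rose and 2 fell. The leading photoreceptor host, Rpgrip1, overlapped between the genotypes in CPM. The sums of the lens (through Bfsp1), leukocyte and photoreceptor lists were higher in both deletion libraries. Their part in these calls was not tested.

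By the lists, 2 of 36 synaptic intronic circles tested rose and 0 fell (Rims2 and Erc2), where 5.03% of all circRNAs tested rose and 3.59% fell. The median log2 change of the 36 was -0.26, against -0.08 for all those tested. The chromatin list had 0 of 10 in either direction (median -0.07), the ciliary list 0 of 7 (median -0.98) and the photoreceptor list 0 of 2 (median -0.24). By shared end, against the 5.33% and 1.87% of all intronic circles tested, 12 rose and 3 fell of 164 that share the donor, 2 and 1 of 113 that share the acceptor, and 6 and 3 of 97 that share neither.

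No intronic circle passed for the day. With edgeR, 0 rose and 0 fell of 375, where 0.0114% of all circRNAs tested rose and 0.0114% fell, 1 in each direction. Without adjustment, 6 and 9 intronic circles had p below 0.05, and DESeq2 called 0. The median log2 change was -0.03 for intronic circRNAs and 0.01 for all tested. The smallest adjusted p was that of a circle of Unc79, a subunit gene of a sodium leak channel, with 0, 29, 0 and 16 reads (edgeR adjusted p = 0.138). It was listed at P13 in both genotypes and at P12 in neither. An exonic circRNA at the same donor, from 102991350, had 410, 416, 256 and 281 reads and was listed in all. Next in the upward direction were circles of Arhgap12 (10, 36, 2 and 9 reads) and Becn1 (12, 25, 6 and 20), beside the Rims2 and Epb41l5 circles above. Downward they were circles of Magi2 (42, 17, 17 and 4), Tmem50a (27, 13, 25 and 7) and Apc (35, 19, 22 and 6), beside those of Rasgrf2 and Ntm.

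Single libraries were also compared, which describes those libraries and not the conditions. A circle with at least 20 reads over both was called where the ratio of scaled counts was at least 2 or at most 0.5 and its 95% exact interval left out 1. At P12, 38 of 302 intronic circles were higher (12.6%) and 26 lower (8.61%) in the deletion, where 10.9% and 10.6% of all circRNAs compared were. At P13, 43 of 339 were higher (12.7%) and 36 lower (10.6%), against 10.3% and 9.58% of all. From P12 to P13, 26 of 436 were higher (5.96%) and 33 lower (7.57%) in wild type, against 4.48% and 4.62%. In the deletion 8 of 209 were higher (3.83%) and 19 lower (9.09%), against 4% and 4.19%. These comparisons share libraries. Scaled by the SRPBM constants, the counts higher and lower were 5 and 181 at P12, 1 and 220 at P13, 39 and 20 between the wild-type days, and 8 and 19 between the deletion days.

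The extremes were mostly circles unlisted in 1 library. The Fbxw4 circle from 45624376 to 45640521 (chromosome 19) had 0, 172, 127 and 121 reads, which made deletion P12 at least 93.6-fold and wild type P13 at least 50.6-fold higher than wild type P12. An exonic circRNA with the same acceptor, from 45630865, had 783, 943, 418 and 387 reads, and another, from 45635735, 312, 326, 232 and 260. The exonic circRNA there from 45591729 had 45, 57, 5 and 0 reads. Setbp1 gave a still more uneven family at 1 acceptor (chromosome 18, 79087180). The circle from 79027924 had 62, 0, 0 and 22 reads, that from 79068007 had 0, 0, 32 and 0, and that from 79075394 had 0, 17, 11 and 16. The exonic circle with the most reads at this acceptor, from 79086551, had 552, 718, 225 and 292 reads. Another exonic circle there, from 78923989, had 5, 11, 0 and 3. No library lacked all 3 intronic circles, and only the third was listed in more than 2 libraries.

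**Figure D5:**
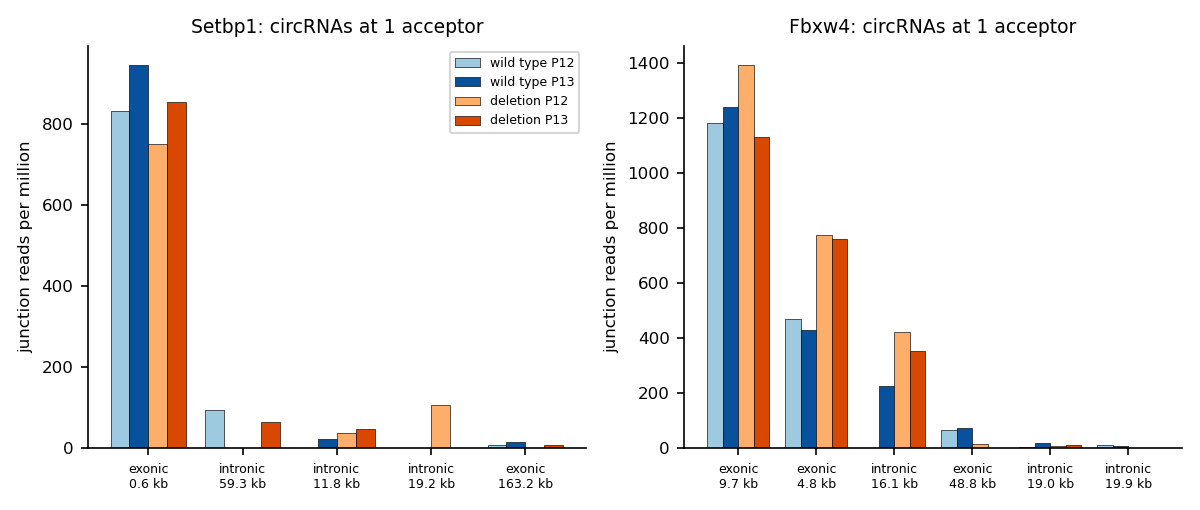
CPM for circRNAs that share 1 acceptor of Setbp1 (left) and of Fbxw4 (right), with at least 10 reads in all; bars are single libraries, labelled by class and span. The exonic circles appear in all 4 libraries for the highest bars, whereas the Setbp1 intronic circles and the longer of the abundant Fbxw4 circles, the intronic one, lack bars in some.

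In Rims2 the circle from 39452040 to 39511374 had 38, 51, 30 and 0 reads. Its deletion P13 level was at least 7.63-fold lower than wild type P13 and at least 11.2-fold lower than deletion P12. Other circles from the same acceptor were listed there, such as that to 39462610 with 64, 86, 30 and 40 reads. An exonic circle at the same donor, from 39472334, had 0, 36, 0 and 0 reads. A Rims2 circle from 39274976 to 39306103 had 0, 38, 0 and 0 reads. Among circles listed in both libraries compared, Zfp984 had 3, 3, 17 and 3 reads (deletion P12 over wild type P12 12.5, interval 3.62 to 66.7) and Snrk, a kinase gene, 2, 28, 8 and 7 (wild type P13 over P12 12.4, interval 3.11 to 107). Adcy6, an adenylyl cyclase gene, had 27, 3, 2 and 0 (wild type P13 over P12 0.098, interval 0.019 to 0.319). Ppp1r9a, the gene of the actin-binding protein neurabin, had 10, 30, 0 and 2, and Gdpd5 16, 6, 10 and 19. Circles of Dnajc1 (20, 3, 8 and 11), Myo9a from 59801911 (28, 31, 7 and 28) and Rsrc2 (17, 15, 6 and 22) were the other extremes between the days. No second library of any group was there to compare.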

How the data were processed

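Ocular circRNA libraries, 1 per group, were analysed as deposited. Per the file headers, the authors' tables give junction read counts, non-junction counts and class per circRNA in the CIRI layout. The deposited junction reads ratio is a fraction, doubled junction reads over the sum of doubled junction and non-junction reads, which reproduced 100% of entries when recomputed. The deposited SRPBM values are a signal, the authors' junction reads divided by 1 constant per library; what that constant counts is unstated. The submitters' processing notes name BWA and DESeq2, without version or role. No source used here names the genome build or annotation. Host identifiers were named with a RefSeq table of assembly GRCm38.p6, in which 1633 of 1634 matched.

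Junction counts (299723 to 759063 per library) were scaled by TMM and tested with edgeR 4.0.16 (quasi-likelihood, additive genotype and day, Benjamini-Hochberg threshold 0.05) over the 8785 circRNAs of all classes that reached 10 reads in 2 or more libraries. DESeq2 1.42.0 was an alternative. Ratios of single libraries carry exact conditional (Clopper-Pearson) 95% intervals, and a fold against an unlisted circRNA is a bound at 3 reads. Intervals and floors cover counting error only, since reads carry no molecular identifiers. Class medians were compared within libraries by an exact sign-flip permutation test (scipy 1.17.1). Scripts were tested on simulated data. Alternatives were other scalings, filters, thinning, class rules, DESeq2, no second term and leaving out each library. Fits that left out 1 library had the genotype or the day as their only term and were filtered and scaled anew. A call lost there is thus not due to the missing library alone.

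The members, lists and tests were chosen with earlier results of these data known. Named circles were the 15 with the highest mean CPM, all called for the genotype, up to 5 per direction for the day, the 3 longest and 3 shortest (at least 50 reads), the 8 leading hosts, the 4 highest and 4 lowest ratios (at least 100 reads), the 3 leading ones listed in 1 genotype only, the 3 extremes per pair and direction, the 3 leading antisense ones, and any with 50 reads in 1 library only. Circles of 2 hosts that met this rule are not reported here. Other circles at a shared end were chosen after their values were seen. No sequence was printed, as no genome was used here.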

Additional observations from a re-analysis of the deposited data

Results flagged for a closer look

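In 3 intronic circles the difference between the genotypes was called in opposite directions at P12 and P13, each from 1 library against 1. The difference between the days was not tested. The Setbp1 circle from 79027924 was at least 9.35-fold lower in the deletion at P12 and at least 16.3-fold higher at P13, from 62, 0, 0 and 22 reads. For the same circle the day went opposite ways in the genotypes, at least 23.4-fold lower at P13 in wild type and at least 6.52-fold higher at P13 in the deletion. The Fmn1 circle from 113426525 to 113444459, with 24, 16, 0 and 19 reads, was at least 3.62-fold lower in the deletion at P12 and 2.65-fold higher at P13. The Pakap circle from 57709451 to 57757683 had a ratio of deletion to wild type of 2.08 at P12 and 0.431 at P13.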

How the results depend on the processing

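Under DESeq2 size factors, no filter, a filter of 20 reads in 2 libraries and the wider class rule, the counts for the genotype stayed within 1.5 times 20 and 7. DESeq2 called 13 (11 rose, 2 fell), with 259 of 375 adjusted p-values not given, and the fit without a day term had 11 that fell. Leaving out 1 library gave 17 to 65 calls for the genotype, 12 to 30 that rose and 4 to 37 that fell, and for the day 0 to 2 calls, 0 to 2 that rose and 0 that fell. With no filter, 2 were called for the day, 1 in each direction. With the SRPBM constant 166 were called for the genotype, 1 rose and 165 fell. Under that constant the log2 change turned negative for circles of Tulp4 (-1.41), Fmn1 (-0.68, -0.32 and -0.062), Zeb1 (-1.21 and -0.0099), Rims2 (-0.32), Tlk1 (-1.43), E2f5 (-0.45), Pitpnm3 (-0.12), Peli2 (-0.60), Fars2 (-0.75), Baz2b (-0.19) and Apc (-1.32). The constant shifts all circRNAs alike within a library.

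Single-library counts, higher and lower, were 16 and 8 (genotype at P12), 17 and 16 (genotype at P13), 5 and 3 (day, wild type) and 1 and 4 (day, deletion) with at least 50 reads, which leaves fewer circles. With a fold of 4 they were 9 and 14, 7 and 20, 6 and 8, and 1 and 8. With the SRPBM constant they were 5 and 181, 1 and 220, and 20 lower for the day in wild type.

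The intronic share of circRNAs with at least 10 reads was 4.54%, 4.72%, 4.25% and 4.23% in library order, and in thinned libraries 6.17% and 6.22% in wild type. By reads it was 3.51%, 3.46%, 3.66% and 3.55% at 10 reads or more, 3.96% and 3.86% in thinned wild type, and 4.13%, 4.06%, 4.33% and 4.24% with the wider class rule. Span, reads and ratio kept the direction of their difference from exonic circRNAs under all alternatives run, with span differences of 2755 to 5125 bases. Thinning raised the exonic share listed in all 4 libraries to 28.4%. The antisense share was 1.51% where a host had at least 3 exonic circRNAs. The cause of these shifts was not tested. No paired analysis was possible because the labels give no replicate numbers; the day term of the fit already compares the genotypes within each day. At a median of 4 reads per circle, 3122 circles could not be tested.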
